A study of Mus musculus with 2 samples.

Results

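The 39 genes described here encode proteins of the lysosome. They are 13 genes of the cathepsins and legumain, 7 glycosidases, 5 hydrolases of lipids and peptides, 5 membrane proteins, 3 soluble cofactors, 3 subunits of the proton pump and the 3 transcription factors Tfeb, Tfe3 and Mitf. They were chosen by known function, with earlier results of these data known. Each was found on the arrays through the transcript accession of its gene probes. Of the 22906 genes named on both arrays, 39 belonged to the set. Their RNA was compared between self-renewing macrophages and the primary macrophages of the same kind of culture. Bone marrow cells of C57BL/6 mice, labelled male, were grown in medium with recombinant human M-CSF, the growth factor that drives macrophage differentiation, at 100 ng/ml, and FCS at 10%. Primary macrophages were taken at day 5 according to the labels, where the methods give 5 to 7 days and keep the adherent cells. Self-renewing macrophages were taken after passage 4, when the methods describe colonies growing out of a culture that was otherwise lost. The methods use mixed populations of them by default, and no source used here says that the array sample was a clone. The labels name no engineered allele in either group. Each cell type was measured on 1 Agilent SurePrint G3 mouse array with 1 dye, so no difference has a replicate check, no test was possible and differences are given by their size.

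Apart from a few proteases, the lysosomal genes were measured within 2-fold of each other in the 2 macrophage types. Cathepsin H fell 73.2-fold, cathepsin L fell 3.53-fold and legumain fell 3.83-fold in the self-renewing macrophages. These 3 of 39 were 7.69%, close to the 8.38% of all genes that were at least 2-fold lower. No gene, that is 0 of the 39, rose at least 2-fold, where 4.76% of all genes did. The nearest was cathepsin A at 1.94-fold, which passed 2-fold with quantile normalization and with the authors' scaled values. The glycosidases, membrane proteins, pump subunits and transcription factors lay between 0.18 log2 below and 0.43 log2 above the primary macrophages.

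Lysosomes are acidic organelles in which proteins, glycans and lipids taken up from outside or delivered by autophagy are broken down. Cathepsins are their proteases, most of which are made as inactive precursors and cleaved to the active form at low pH, and a proton pump in the membrane keeps the lumen acidic. Macrophages carry many lysosomes, since they digest engulfed particles and dying cells, and cathepsins and legumain also trim proteins for presentation on MHC class II. Transcription factors of the MiT/TFE family, Tfeb, Tfe3 and Mitf, move to the nucleus when the kinase mTOR is inactive and bind E-boxes, the motif CACGTG, in promoters of many lysosomal genes.

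The E-box sites of these genes are shown because genes that fell and genes that stayed level both carried the motif. RefSeq promoter windows of GRCm38.p6 reach from 250 bases before to 50 bases after a start site, and 32 of the 39 genes have at least 1. Ctsb, Ctse, Ctsh, Ctsw, Asah1, Npc1 and Atp6v1h were not matched to a window. The motif CACGTG reads the same on both strands, and the longer motif TCACGTG, which MiT/TFE factors prefer, was sought on both strands and always overlaps it. Shown are the sites of Lgmn and Ctsl, which fell, 1 of 2 sites each of Ctsa and Ctsd, which did not, and the stretch of Lamp1 with its 4 E-boxes, the most in the set. They are given 5′ to 3′ on the strand of the gene, with CACGTG in capitals.
Lgmn, chr12:102439126-102439151, minus strand: gaatgtctgtCACGTGgtccatttta
Ctsl, chr13:64370741-64370766, minus strand: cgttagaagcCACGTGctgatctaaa
Ctsa, chr2:164833751-164833776, plus strand: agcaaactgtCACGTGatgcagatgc
Ctsd, chr7:142387910-142387935, minus strand: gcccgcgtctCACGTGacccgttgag
Lamp1, chr8:13159091-13159160, plus strand: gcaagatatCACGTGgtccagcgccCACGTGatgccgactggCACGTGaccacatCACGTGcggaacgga

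CACGTG was found in 13 of the 32 genes with a window, or 40.6%, against 8.09% of all 27025 genes with a window and 10.7% of the 12335 that were also above background on the arrays. The longer motif was found in 11 of 32, or 34.4%, against 4.29% and 6.15%. Among 107 other genes of the lysosomal pathway with a window, the shares were 19.6% and 17.8%. The longer motif was held by Ctsa, Ctsd, Lgmn, Gla, Glb1, Gaa, Naglu, Lamp1, Mcoln1, Atp6v0d1 and Atp6v1a, while the E-boxes of Ctsl and Ctsf lack the T beside the core. By role, 5 of 9 cathepsin and legumain promoters, 4 of 7 glycosidase promoters, 2 of 4 membrane protein promoters and 2 of 2 pump promoters held CACGTG. The 4 promoters of lipid and peptide hydrolases, the 3 of cofactors and the 3 of the regulators held 0. A match describes the letters of the window and not a bound site.

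Signals were read as levels, the log2 of the background-corrected intensity relative to the 75th percentile of the array's gene probes. A level of 0 was an intensity of 434 in the primary and 446 in the self-renewing macrophages, and a difference is the level in self-renewing less that in primary macrophages. Well above background were 34807 of 56598 gene probes in the primary and 33095 in the self-renewing macrophages, and 0 gene spots were saturated. The primary array went against its sex label. Among 8 Y-linked genes with a probe, 5 had signal above background in self-renewing and 1 in primary macrophages, and Xist, the RNA of the inactive X chromosome, had it in primary macrophages alone, so that the sex of the donor mice and the cell type cannot be told apart. Each of the 10 macrophage markers, among them Csf1r and Adgre1, was well above background on both arrays. Their summed linear level was 854 times the 75th percentile in primary and 995 times in self-renewing macrophages. In the latter 7 were higher and 3 lower, from -1.76 log2 for Fcgr1 to 2.23 log2 for Mertk. Markers of other cells were present too and mostly lower in the self-renewing macrophages. The summed linear level of 10 neutrophil markers was 121 times the 75th percentile in primary and 6.67 times in self-renewing macrophages, with S100a8, S100a9, Ltf and Ngp not above background in the latter. Elane differed least of those above background, with 3.05 and 2.58 log2. The summed level of 9 osteoclast markers was 20.1 and 6.96 times, of 9 T and NK cell markers 14.3 and 12.2, of 6 B cell markers 1.96 and 0.301, and of 6 mast cell and basophil markers 0.346 and 0.279. For 8 dendritic cell markers it was 206 and 208, most of it Siglech (7.60 and 7.69 log2), while Itgax was 8.93-fold and Ccr7 at least 17.7-fold lower and the list median was -0.53 log2. In bulk RNA, fewer cells of a type and less RNA per cell cannot be told apart.

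Error could be read from the arrays in a few ways. The scanner software's own error estimate gave a difference an uncertainty of 0.20 log2 for nearly all of these probes. That value was nearly the same at all but the dimmest signals, and it is not a spread measured between spots. Between probes of 1 gene, the difference had an SD of 0.32 log2 over 5077 genes with several usable probes, and of 0.15 log2 over the 12 lysosomal genes that had them. The SD between probes used below is the 0.32 log2 of all genes, which is wider than that of the lysosomal genes. Repeat spots of 1 probe varied far less, as given for cathepsin L. None of these measures the spread between cultures.

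Across the 39 genes, 38 were well above background on both arrays and cathepsin E on the primary array alone. At 2-fold, 0 of 39 were higher, where 4.76% of the 15511 genes above background on at least 1 array were higher. At 2-fold, 3 of 39, or 7.69%, were lower, against 8.38% of all genes, and at 5-fold 1 of 39, or 2.56%, against 2.93%. These shares of lower genes lay close to those of all genes. The direction of the small differences was less even, with 28 of 39, or 71.8%, above 0 against 47.9% of all genes, and a median of 0.12 log2 against -0.02 log2. By the SD between probes over all genes, 0.32 log2, 21 of 39, or 53.8%, differed by less, close to the 52.9% of all genes. Beyond that SD, 12 of 39, or 30.8%, were higher against 21.4% of all genes, and 6 of 39, or 15.4%, lower against 25.7%. Without Ctsh the median was again 0.12 log2.

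**Figure D1:**
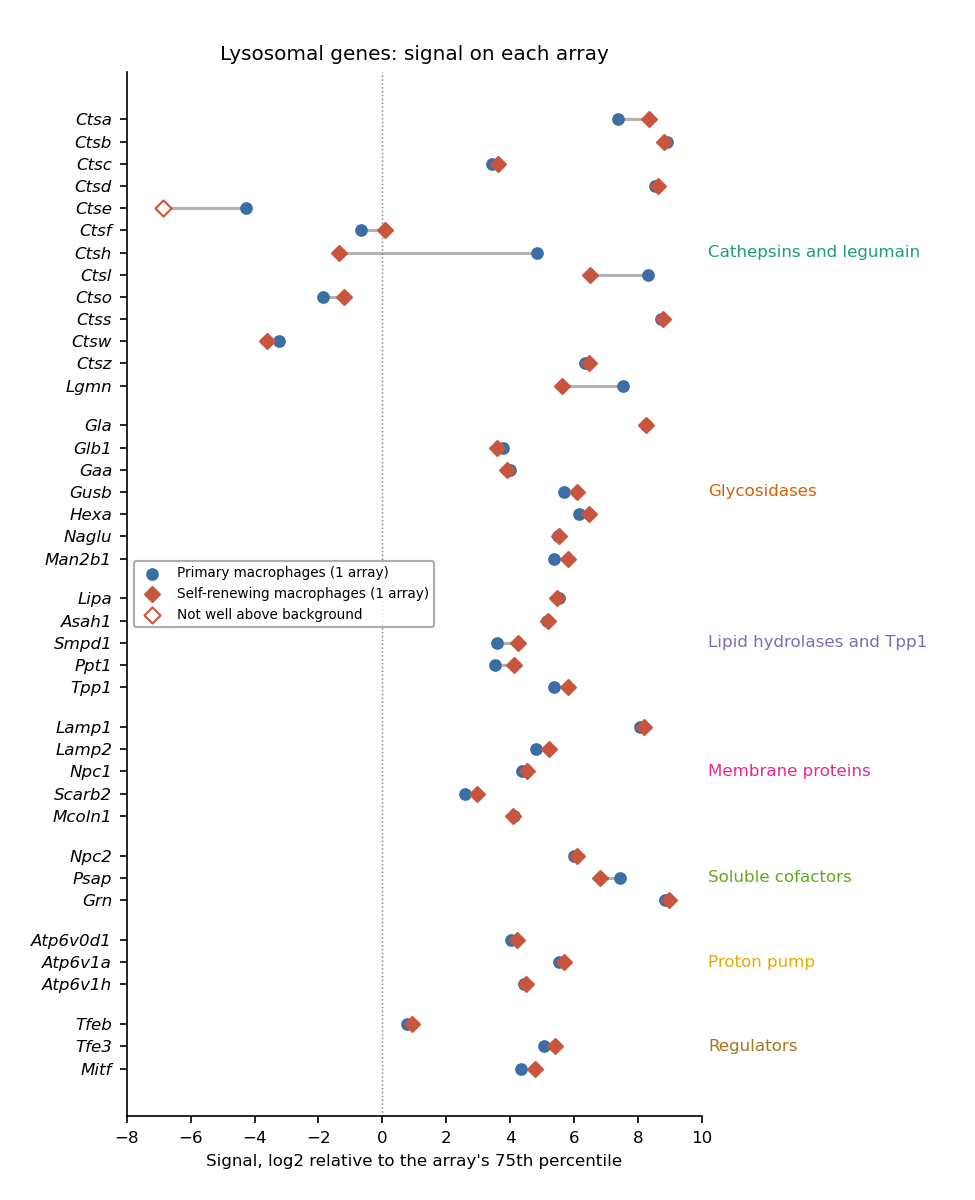
Level of each of the 39 lysosomal genes on the array of primary macrophages (circles) and of self-renewing macrophages (diamonds), in log2 relative to the 75th percentile of that array's gene probes, 1 array each and no error bars. The long grey lines belong to Ctsh, Ctsl and Lgmn, and to Ctse, whose open diamond was not well above background.

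Cathepsin H, encoded by Ctsh on chromosome 9, is an aminopeptidase that also cuts within proteins. Its brightest probe had an intensity of 12419 in primary and 175 in self-renewing macrophages, or levels of 4.84 and -1.35 log2. The gene thus went from well over the 75th percentile of the primary array to below that of the other, a difference of -6.19 ± 0.20 log2 (scanner error). A second Ctsh probe had levels of 1.90 and -4.57 log2 and a difference of -6.46 log2. The last probe, with levels of 0.67 and -5.93 log2, did not stand above background on the second of these, and was at least 54.0-fold lower in the self-renewing macrophages. All 3 probes were lower in the self-renewing macrophages, the last by an amount that is known only as a bound.

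Cathepsin L, encoded by Ctsl on chromosome 13, is a cysteine endopeptidase of broad reach that is also known for trimming the invariant chain of MHC class II in thymic epithelium. Its probe was printed in 10 spots on each array. In the primary macrophages the spots ran from 8.25 to 8.37 log2 with an SD of 0.035, and in the self-renewing macrophages from 6.44 to 6.54 log2 with an SD of 0.029. The spots of the arrays did not overlap, and the means of 8.31 and 6.49 log2 differed by -1.82 log2.

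Legumain, encoded by Lgmn on chromosome 12, cuts after asparagine and helps to process cathepsins B, L and H. Its level was 7.54 log2 in primary and 5.61 log2 in self-renewing macrophages, a difference of -1.94 ± 0.20 log2 (scanner error) by its 1 probe. Legumain and cathepsin L thus fell by similar amounts, and cathepsin H by far more. Over 9 other ways of processing the arrays, the differences of Ctsh (-6.21 to -5.71 log2), Ctsl (-1.85 to -1.63 log2) and Lgmn (-1.96 to -1.75 log2) stayed past 2-fold. Of the markers above background, 8 of 9 for neutrophils and 4 of 8 for osteoclasts were also at least 2-fold lower in these cells, with list medians of -5.24 and -1.54 log2. The part of such cells in the falls of Ctsh, Ctsl and Lgmn was not tested.

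Of the other cathepsins, 3 had differences beyond the SD between probes on the higher side. Cathepsin A, a carboxypeptidase that also protects β-galactosidase and neuraminidase from degradation, had levels of 7.37 and 8.33 log2 and a difference of 0.96 log2. It passed 2-fold with quantile normalization (1.13 log2) and with the authors' scaled values (1.15 log2). Cathepsin F, a cysteine protease linked to antigen processing in macrophages, went from -0.67 to 0.09 log2, 1.70-fold. Cathepsin O, a little studied member of the same family, went from -1.86 to -1.19 log2, 1.59-fold. These 3 had 1 probe each.

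The differences of 5 further cathepsins were small. Cathepsin B differed by -0.11 log2, from 8.90 to 8.80 log2, and cathepsin D, the aspartic protease of lysosomes, by 0.11 log2, from 8.51 to 8.62 log2. Cathepsin S, which makes the last cuts of the invariant chain, had levels of 8.71 and 8.78 log2 and differed by 0.07 log2. Cathepsin Z, a carboxypeptidase, differed by 0.11 log2, and cathepsin C, which activates granule serine proteases, by 0.19 log2. All 5 differences were smaller than the scanner error of 0.20 log2.

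Cathepsins E and W were dim. Cathepsin E, an aspartic protease of endosomes, had levels of -4.27 log2 in primary and -6.87 log2 in self-renewing macrophages. The latter was not well above background, so Ctse was at least 1.75-fold lower there, and the scanner error was 1.19 log2. Cathepsin W, known from cytotoxic lymphocytes, went from -3.24 to -3.61 log2, a difference of -0.37 log2, and the signal of its second probe was above background in primary macrophages alone. Over the 13 cathepsins and legumain the median difference was 0.07 log2, with 7 above 0, and the range from -6.19 to 0.96 log2 was wider than in any other role.

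**Figure D2:**
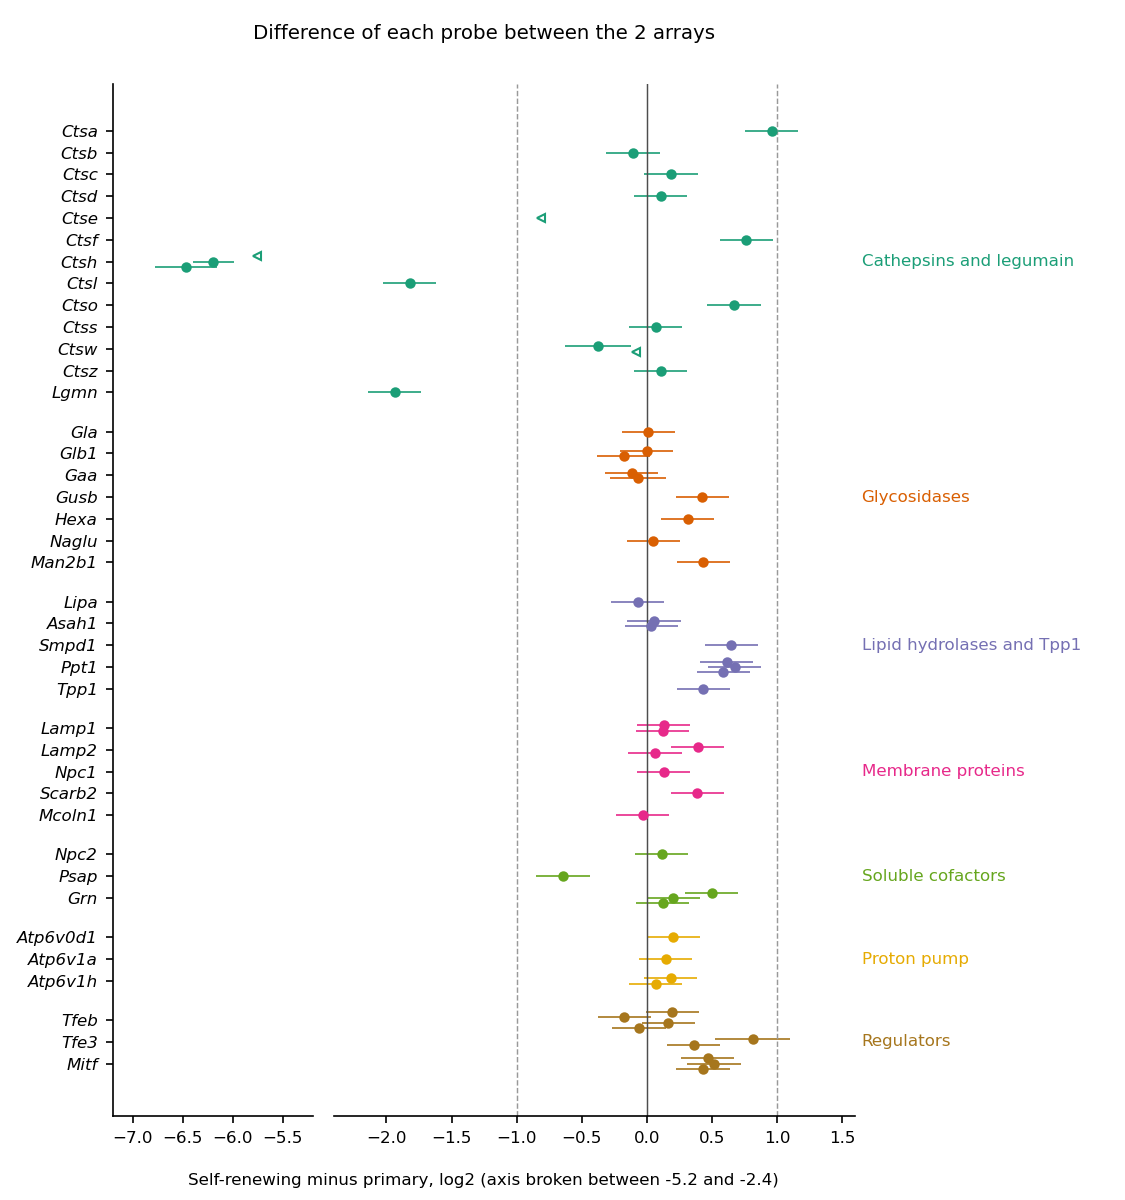
Difference of each probe, self-renewing less primary macrophages in log2, on an axis broken between -5.2 and -2.4. Points are probes well above background on both arrays with the scanner software's error as bars, open triangles are upper limits for probes with signal above background on the primary array alone, dashed lines mark 2-fold, and only probes of Ctsh, Ctsl and Lgmn lie beyond them.

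The 7 glycosidases, which strip sugars from glycoproteins, glycolipids and glycogen, had differences from -0.18 to 0.43 log2 with a median of 0.05 log2. Those of Man2b1, the lysosomal α-mannosidase (5.37 and 5.81 log2), and of Gusb, the β-glucuronidase (5.67 and 6.09 log2), were both 0.43 log2 and beyond the SD between probes. Hexa, the α chain of β-hexosaminidase, was just inside it at 0.32 log2. The other 4 were nearer to 0. Gla, the α-galactosidase, had levels of 8.24 and 8.25 log2 and differed by 0.01 log2. Naglu, which removes N-acetylglucosamine from heparan sulfate, differed by 0.05 log2. Gaa, the acid α-glucosidase that degrades glycogen, differed by -0.11 and -0.07 log2 on its 2 probes. Glb1, the β-galactosidase often used as a mark of senescent cells, differed by -0.18 log2 on the brighter of 2 probes and by -0.00 log2 on the other.

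The lipid and peptide hydrolases had a median of 0.44 log2 over 5 genes, with 4 above 0. Smpd1, the acid sphingomyelinase, went from an intensity of 5262 to 8494, 1.57-fold relative to the 75th percentile. Ppt1, which removes fatty acids from proteins, had differences of 0.59, 0.61 and 0.68 log2 on its 3 probes. Tpp1, a tripeptidyl peptidase, differed by 0.44 log2. Lipa, the acid lipase that frees cholesterol from lipoproteins taken up by macrophages, differed by -0.07 log2, and Asah1, the acid ceramidase, by 0.03 and 0.06 log2.

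Among the 5 membrane proteins, differences ran from -0.03 to 0.39 log2 with a median of 0.13 log2. Lamp1, among the most abundant proteins of the lysosomal membrane, had levels of 8.07 and 8.19 log2 and differed by 0.12 and 0.13 log2 on its 2 probes. Its promoter held the 4 E-boxes shown above, whose part in the level of Lamp1 was not tested. Scarb2, the receptor that carries glucocerebrosidase to lysosomes, went from 2.58 to 2.97 log2, a difference of 0.39 log2. Lamp2, needed for the fusion of autophagosomes with lysosomes, differed by 0.39 log2 on one probe and by 0.06 log2 on the other. Npc1, which exports cholesterol from the lysosome, differed by 0.13 log2 and Mcoln1, a calcium channel of the lysosomal membrane, by -0.03 log2.

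The soluble cofactors split. Psap, the precursor of the saposins that present sphingolipids to hydrolases, went from 7.44 to 6.80 log2, 1.56-fold lower. After the 3 genes that fell at least 2-fold and the bound of Ctse, its difference was the lowest of the 39. Npc2, which hands cholesterol to Npc1, differed by 0.11 log2. Grn, the progranulin gene, differed by 0.12, 0.20 and 0.50 log2 on its 3 probes. Of the pump subunits, Atp6v0d1 differed by 0.21 log2, Atp6v1a, which holds the site of ATP hydrolysis, by 0.14 log2, and Atp6v1h by 0.07 and 0.19 log2.

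The transcription factors that act on lysosomal genes all had a brightest probe that was higher in the self-renewing macrophages, none by 2-fold. Mitf, also the master factor of melanocytes, had levels of 4.35 and 4.78 log2, and its 3 probes differed by 0.43, 0.47 and 0.52 log2. Tfe3 went from 5.05 to 5.41 log2 on its bright probe, 0.36 log2, and its dim probe differed by 0.81 log2. Tfeb had levels of 0.77 and 0.94 log2 and a difference of 0.17 log2, but its 4 probes ran from -0.17 to 0.20 log2, 2 on each side of 0. A direction for Tfeb could therefore not be given, while Mitf was higher on each of its probes. The arrays differed in sex-linked RNA, and the X-linked genes of the set, Gla, Lamp2 and Tfe3, had differences of 0.01, 0.39 and 0.36 log2, in which the part of sex was not tested.

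**Figure D3:**
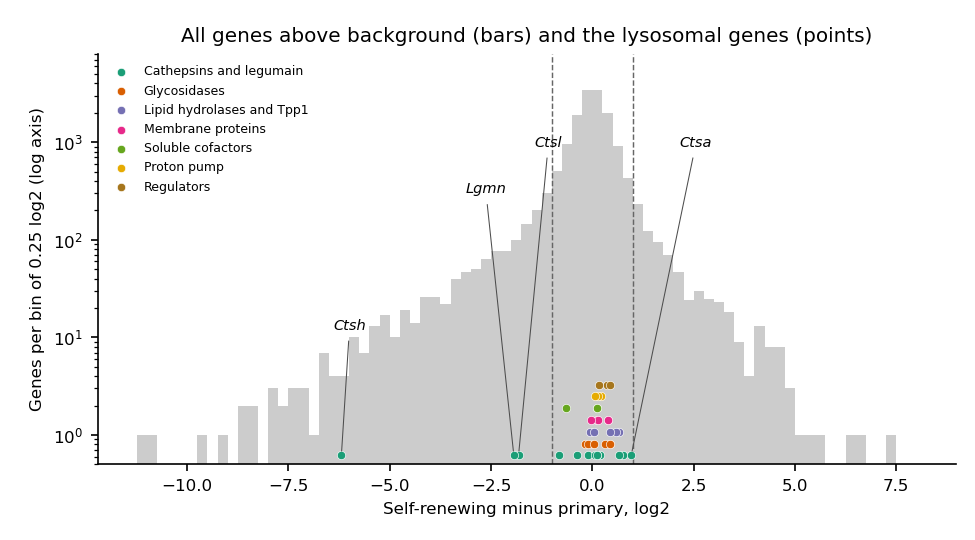
Number of genes per bin of 0.25 log2 of difference, self-renewing less primary macrophages, on a log axis (bars, 15511 genes above background on at least 1 array, bounds included), with the 39 lysosomal genes as points coloured by role at heights chosen for legibility. Dashed lines mark 2-fold, and all but Ctsh, Ctsl and Lgmn lie between them, Ctse by its bound.

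Differences were also read by promoter motif. The 13 genes with an E-box had a median difference of 0.05 log2, 8 of them above 0, and ran from -1.94 (Lgmn) to 0.96 log2 (Ctsa). The 19 genes with a window and no E-box had a median of 0.36 log2, with 17 above 0, from -0.64 (Psap) to 0.67 log2 (Ctso). Among genes with a window, the lowest and the highest difference thus both belonged to genes with the E-box. Mitf, Tfe3 and Tfeb had windows without it. The part of MiT/TFE factors in these differences was not tested. The gene that fell most, Ctsh, was not matched to a window.

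**Figure D4:**
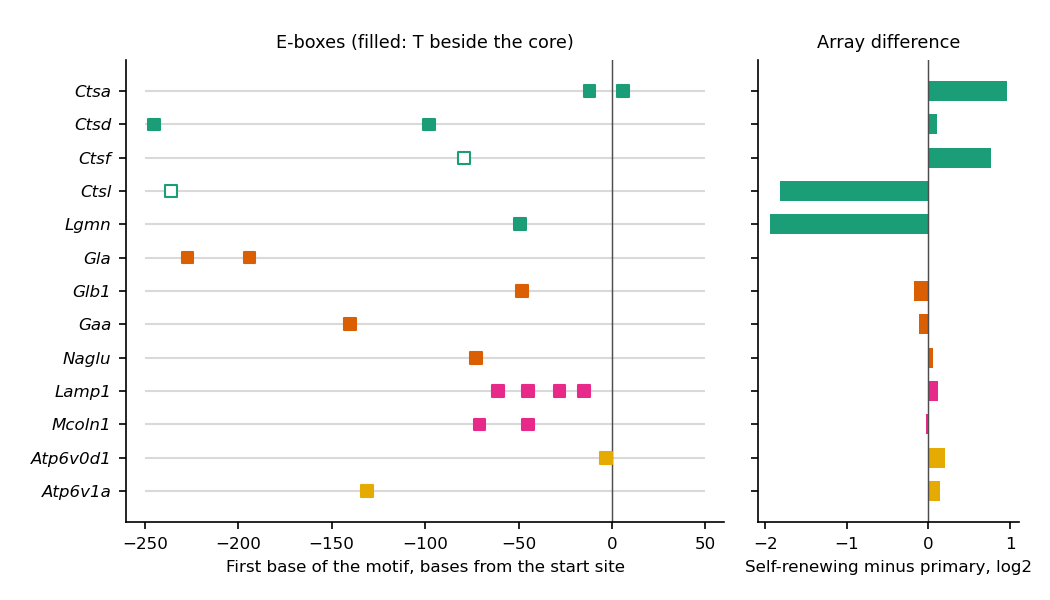
Left, first base of each CACGTG in bases from the start site, for the 13 lysosomal genes whose window holds one, filled where TCACGTG is present on either strand. Right, difference of the same gene, self-renewing less primary macrophages in log2, with bars from 0, reaching from -1.94 for Lgmn to 0.96 for Ctsa.

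The rest of the lysosomal pathway was read from lists of 141 further symbols, of which 137 had a named probe and 132 were above background on at least 1 array. Past 2-fold, 5 of the 132 were higher and 12 of the 132 lower in the self-renewing macrophages. Their median was 0.09 log2, and 83 were above 0. The counts past 2-fold are to be read against the same 4.76% and 8.38% of all genes, and their shares lay close to these.

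The 5 that rose came from the lists of glycosidases and sulfatases (2 of 20 above background), of other acid hydrolases (2 of 15) and of membrane and transport proteins (1 of 28). These lists also held falls, 1, 2 and 2 genes in the same order. Hgsnat, which acetylates heparan sulfate in the lysosomal membrane, rose from 4.59 to 6.41 log2, 3.52-fold, and its second probe rose by 2.14 log2. Smpdl3a, a phosphodiesterase related to acid sphingomyelinase, rose from 4.78 to 6.29 log2, 2.84-fold. Galc, the galactosylceramidase, rose 2.21-fold and Acp2, the lysosomal acid phosphatase, 2.13-fold. Abcb9, a peptide transporter of the lysosomal membrane, rose 2.03-fold. The medians of these lists were 0.16 log2 over 20 other glycosidases and sulfatases, 0.23 log2 over 15 other acid hydrolases and 0.08 log2 over 28 other membrane and transport proteins.

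The falls reached further, as they did over all genes, which ran from -11.1 to 7.30 log2. Cathepsin G, a serine protease of neutrophil granules, went from 1.80 log2 to below background, at least 118-fold lower. Of the 9 neutrophil markers above background, 8 were also at least 2-fold lower, while Elane was 1.39-fold lower. The part of neutrophils in the fall of cathepsin G was not tested. Laptm4b, a transmembrane protein of late endosomes, was at least 64.0-fold lower, Plbd1, a phospholipase B-like protein, at least 42.1-fold and Hyal1, a hyaluronidase, at least 37.8-fold. Acp5, the tartrate-resistant acid phosphatase, fell 24.2-fold, from 1.38 to -3.22 log2. Napsa, an aspartic protease, fell 2.23-fold on its brightest probe and Slc15a3, a peptide transporter, 2.62-fold. In the list of other cathepsins, which holds Ctsg and Napsa, 4 genes were above background and 2 of them at least 2-fold lower. Their median was -0.89 log2, with 1 above 0.

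In the delivery, acidification and sensing machinery, single genes fell while the medians of their lists, these genes included, were near 0. Igf2r, the large mannose 6-phosphate receptor that carries new hydrolases to lysosomes, fell from 2.82 to 0.68 log2, 4.41-fold, whereas the median of 18 sorting genes was 0.06 log2. Atp6v0d2, a pump subunit of osteoclasts and some macrophages, fell 4.46-fold with 2 probes at -2.16 log2, whereas the median of the list of 15 further pump genes was 0.18 log2. Rragd, a GTPase that recruits mTOR to the lysosome, fell 4.86-fold, whereas the median of 22 genes of nutrient signalling was 0.10 log2. Of the inhibitors, Spint1, an inhibitor of serine proteases, fell 6.05-fold and Cst7, cystatin F, which inhibits cathepsins C, H and L among others, fell 2.33-fold, and the median of 10 was -0.27 log2.

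**Figure D5:**
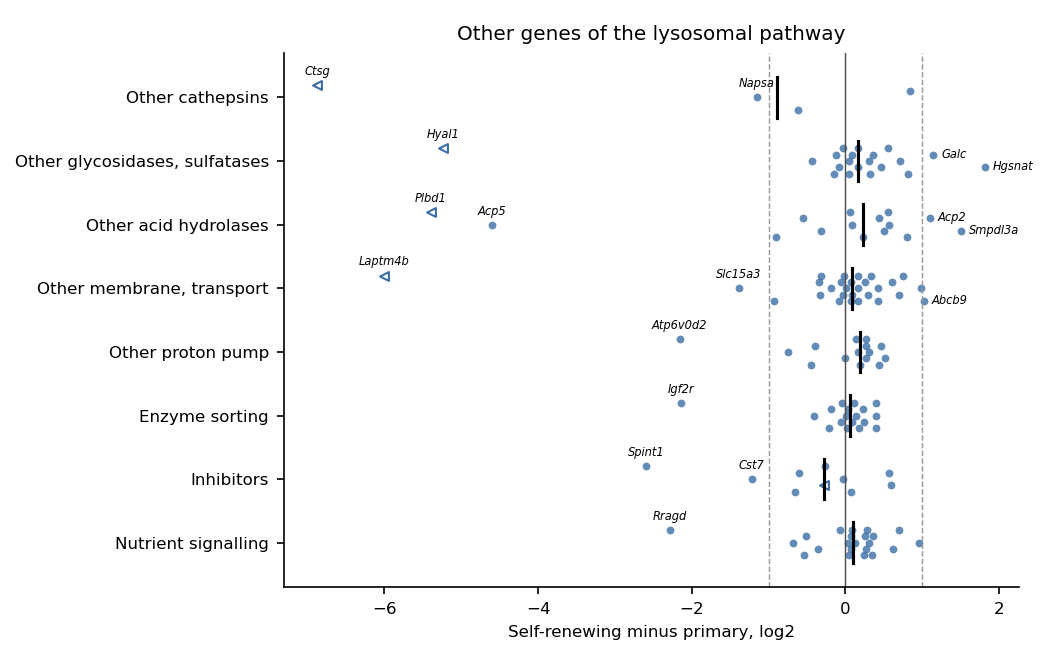
Difference of each further lysosomal pathway gene, self-renewing less primary macrophages in log2, by list. Points are genes above background on both arrays, open triangles upper limits for genes with signal above background on the primary array alone, black bars list medians and dashed lines 2-fold, and the 5 genes that rose and 12 that fell are labelled.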

How the data were processed

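The authors deposited Feature Extraction 11.5.1.1 output for 1 array per cell type, with the intensity of each spot on a linear scale, both raw and with background and spatial trend removed within the array, and flags for spots above background, saturated spots and outliers. They also deposited a table equal to the corrected intensity times 1 constant per array, 1.07 for primary and 1.19 for self-renewing macrophages. How these constants were chosen is not given in the sources used here.

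From these, log2 of the corrected intensity less the array's 75th percentile over gene probes was computed here. Control spots and 63 outlier spots per array were left out, and spots of a probe were averaged. Accessions named 32983 of 56598 probes (58.3%) through RefSeq genes of GRCm38.p6. Probe positions are not given, since the arrays were designed on another assembly. A gene was represented by its probe of highest mean signal among those well above background on at least 1 array. Where 1 array was below background, the fold is a bound against the higher of the probe's own signal there and that array's lowest above background. With 1 array per cell type the number of arrays limits precision. All 39 genes are named, and from each pathway list up to the 3 largest differences of at least 2-fold in each direction that no other probe contradicts, with defining markers. The genes and lists were chosen with earlier results of these data known. The script was tested on simulated data.

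The 9 alternatives were the authors' scaled values, quantile normalization, scaling to the median or 75th percentile of probes detected on both arrays, normexp (offset 50), no filter on background, genes by probes detected on both arrays only, and a gene's dimmest probe or the mean of its probes. Python 3.11.15, numpy 2.4.6, pandas 2.3.3, matplotlib 3.10.9, R 4.3.3 and limma 3.58.1 were used.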

Additional observations from a re-analysis of the deposited data

How the results depend on the processing

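No paired analysis was possible because there was 1 array per cell type. The falls of Ctsh, Ctsl and Lgmn stayed past 2-fold under all 9 alternatives. With no filter on background, 4 of the 39 were at least 2-fold lower. Ctse was then included at -2.60 log2, from a signal not well above background in self-renewing macrophages. The authors' scaled values moved the median of all genes from -0.02 to 0.17 log2 and the share of higher genes among those past 2-fold from 36.2% to 49.2%. They gave medians of 0.31 log2 over the 39 genes, 0.26 over cathepsins and legumain, 0.24 over glycosidases, 0.62 over lipid and peptide hydrolases, 0.32 over membrane proteins and 0.27 over the further pathway genes, with 33 of 39 genes above 0 where 64.4% of all genes were. Relative to all genes the median of the 39 was higher by 0.14 log2 with either scaling, and by 0.05 log2 with no filter on background. The count of the 39 at least 2-fold higher was 1, Ctsa, with the authors' values and with quantile normalization, which put the median of the further genes at 0.13 log2. Further genes at least 2-fold higher numbered 9 with the authors' values and 3 with normexp. Those at least 2-fold lower numbered 8 with only probes above background on both arrays and 14 with the dimmest probe, in place of 12. Of 350 values of single genes, 343 shifted less than the SD of a gene's probes and 7, in Ctse, Ctsh, Grn, Lamp2 and Tfe3, by more, and 7 genes near 0 changed sign, namely Ctsb, Gaa, Gla, Glb1, Lipa, Mcoln1 and Tfeb. Of 72 pathway list medians, 14 moved beyond a tolerance set from the SD between probes and the number of genes in the list. That tolerance leaves out the spread between genes. Over all genes, normexp gave 428 higher and 750 lower, no filter 1191 and 2335, and only probes above background on both arrays 587 and 782, in place of 738 and 1300. Low signal limits Ctse and Ctsw, which lie near background.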

Other observations

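The osteoclast markers are in part lysosomal, and they differed by unlike amounts. Cathepsin K, the collagen-degrading cathepsin of osteoclasts, had a level of 2.35 log2 in self-renewing macrophages and a difference of 0.85 log2. Of the other markers above background, Acp5, Atp6v0d2 and Dcstamp differed by -4.60, -2.16 and -6.38 log2. Ocstamp, Oscar and Mmp9 differed by -0.91, -0.15 and 0.11 log2. Itgb3 differed by -6.56 log2 as a bound, and by -1.45 log2 on its other probe. Neither Tcirg1 (-0.45 log2) nor Clcn7 (-0.19 log2), the pump subunit and the chloride transporter that acidify the resorption pit, differed by 2-fold. Tcirg1 and Clcn7 were chosen after their values were seen.

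The Ragulator complex anchors mTOR signalling to the lysosome. Its genes Lamtor1 to Lamtor5, looked at after their values were seen, differed by 0.29, 0.24, 0.05, 0.62 and 0.04 log2, with 0 of them past 2-fold. Of the Rag GTPases on the same platform, Rraga and Rragc differed by -0.07 and 0.35 log2, and Rragb, which was dim with levels of -4.03 and -3.08 log2, by 0.95 log2. Rragd was the only one of the 4 to pass 2-fold. Tfec, the fourth member of the MiT/TFE family, had levels of 0.30 and 0.99 log2 and a difference of 0.69 log2. Rraga, Rragb, Rragc and Tfec were also chosen after their values were seen. Of the 22 genes of nutrient signalling, these included, 16 were above 0 and 6 below.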
